A study of Homo sapiens with 12 samples.

Results

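Genes for the coats, tethers, cargo receptors and SNAREs that carry membrane between the endoplasmic reticulum (ER) and the Golgi were examined in 2 human lung cancer lines. The group was a fixed list of 48 gene symbols, put together by function: 9 COPI coat subunits, 4 ARF GTPases with their exchange factor GBF1, 11 COPII genes, 11 golgins and other tethers, 8 cargo receptors and 4 SNAREs. Of the 48 symbols, 48 were found among 16760 genes of the compound experiment and 48 among 17442 genes of the siRNA experiment. All 48 were tested in both experiments, at 1 FPKM or more in at least 2 of the 6 libraries, as were 11953 and 11718 genes in all. FPKM is a fragment count divided by transcript length and by the size of the library, so levels of different genes can be set side by side.

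The libraries came from NCI-H1975 and HCC827, established cell lines of EGFR-mutant lung adenocarcinoma. For the compound, cells of both lines were taken after DMSO or after 18E at 2.5 µM or at 5 µM; the labels give 24 h for 18E and no time for DMSO. For the siRNAs, both lines were transfected with siCON, the control, with siDYN-1 or with siDYN-2; the labels give 48 h for the siDYN samples and no time for siCON. The series is about a compound directed at LIC1, the dynein light intermediate chain whose gene is DYNC1LI1. Each treatment was represented by a single library from each line, which makes 12 libraries. The 2 lines served as replicates, and p-values measure only the spread between these libraries.

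COPII coats, built on the GTPase SAR1, bud cargo carriers from exit sites of the ER. COPI coats, recruited by ARF GTPases, return escaped ER proteins and recycle Golgi membrane. Golgins and other tethers catch the carriers, and SNAREs fuse them with the target membrane. Dynein moves these carriers along microtubules and keeps the Golgi near the cell centre, and sensors of ER stress and Golgi stress switch on many genes of this route.

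The siRNA target was checked first. DYNC1LI1 was at 23.7 FPKM in NCI-H1975 and 16.3 FPKM in HCC827 with siCON. With siDYN-1 it was at 21.5% and 14.9% of that level, and with siDYN-2 at 12.8% and 7.49%. With 5 µM 18E it was at 138% and 184% of its DMSO level. FPKM totals ran from 486409 to 685680 and genes listed at 0 from 534 to 2212. Every treated library had a higher total and fewer genes at 0 than the control of its line and experiment. In HCC827 the number at 0 was 1395 with DMSO and 534 at 5 µM, and in NCI-H1975 it was 2212 with siCON and 1519 with siDYN-2. The 8 lung epithelial markers examined were detected, with NKX2-1 between 7.14 and 44.7 FPKM and MUC1 between 1.63 and 76.7 FPKM. Of the markers of blood, endothelial and stromal cells none was above 1.38 FPKM except CD79A, up to 4.23 FPKM. At 5 µM the fitted changes of the epithelial markers were negative for 7 of 8 genes, beside 6984 of all 11953 genes. NKX2-1 and MUC1 had differences of -1.74 and -1.71. With the DYNC1LI1 siRNAs 7 of 8 markers were negative, beside 5756 of all 11718 genes, and MUC1 was the 1 above 0 (0.94). The part of these marker changes in the results below was not tested. In bulk RNA, fewer cells that express a gene and less of its RNA per cell cannot be told apart.

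The promoters of the group shared short sequence matches, shown here because 8 of the genes carried the same 9 letters. Promoter windows of 250 bases before to 50 bases after the RefSeq start (GRCh38.p14) were found for 42 of the 48 genes and searched on both strands. The Golgi stress element, ACGTGGC, was in 18 of 42 windows (42.86%), beside 3.3% of all 27305 windows and 4.41% of the 9873 windows of tested genes. A UPRE-like element, TGACGTGG, known as a site for factors of the ER stress response, was in 12 of 42 windows (28.57%), beside 0.795% and 0.901%. These motifs overlap: 8 windows (19.0%) held TGACGTGGC, which contains both, as did 0.293% of all windows. The cAMP response element TGACGTCA, the ERSE and the ERSE-II were in 0 of 42 windows, beside 1.98%, 0.0806% and 0.0549% of all windows. These matches are a description of letters and not of binding.

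The 8 shared sites are printed 5′ to 3′ on the strand that reads TGACGTGGC, with these letters in capitals and 10 bases on each side. They lie at chr1:228082682-228082710 (plus strand) for ARF1, chr9:124941248-124941276 (minus strand) for GOLGA1, chr14:92794115-92794143 (minus strand) for GOLGA5 and chr22:38468039-38468067 (minus strand) for KDELR3. The others lie at chr9:136484708-136484736 (plus strand) for SEC16A, chr14:39103221-39103249 (minus strand) for SEC23A, chr5:134648596-134648624 (plus strand) for SEC24A and chr11:62832049-62832077 (minus strand) for STX5. Outside the capitals the flanks differ from gene to gene.
ARF1: ccggaggcgcTGACGTGGCcgccgtcaga
GOLGA1: ggccgctcgcTGACGTGGCgaactgggct
GOLGA5: tgcgtgcgtgTGACGTGGCtcgccgccgg
KDELR3: ggccgggcggTGACGTGGCcagggcggcc
SEC16A: tcagtccggcTGACGTGGCaccagggcca
SEC23A: cccctcctctTGACGTGGCagaggcggcg
SEC24A: tgagagtcggTGACGTGGCggcgaggccg
STX5: tacgtgtaggTGACGTGGCcgcttccagt

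Longer upstream stretches are printed for COPG1, COPE and GOSR2, which are not the genes of largest fitted change. COPG1 was the 1 gene of the group that passed limma at an adjusted p under 0.05 with siDYN-1. COPE and GOSR2 were at least 0.3 higher on the log2(FPKM + 1) scale in every treated library, both at 5 µM and with siDYN. The COPG1 stretch (chr3:129249356-129249605, plus strand) ends 1 base before the start and holds the Golgi stress element at its end, in capitals. The COPE stretch (chr19:18919398-18919637, minus strand) and the GOSR2 stretch (chr17:46922910-46923074, plus strand) leave out bases annotated as untranslated exon and hold none of the motifs.
COPG1: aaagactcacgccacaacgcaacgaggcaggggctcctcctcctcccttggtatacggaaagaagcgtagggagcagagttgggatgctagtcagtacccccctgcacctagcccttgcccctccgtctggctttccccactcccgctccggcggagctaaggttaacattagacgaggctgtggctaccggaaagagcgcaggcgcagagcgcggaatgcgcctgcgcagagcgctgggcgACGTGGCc
COPE: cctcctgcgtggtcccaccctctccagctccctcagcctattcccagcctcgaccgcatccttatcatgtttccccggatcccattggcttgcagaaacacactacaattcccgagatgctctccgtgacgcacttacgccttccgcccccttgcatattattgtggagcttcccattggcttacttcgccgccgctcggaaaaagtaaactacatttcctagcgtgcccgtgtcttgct
GOSR2: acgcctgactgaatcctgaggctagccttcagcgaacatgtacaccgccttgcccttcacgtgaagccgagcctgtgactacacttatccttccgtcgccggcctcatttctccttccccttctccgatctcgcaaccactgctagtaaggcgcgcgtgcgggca

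**Figure D1:**
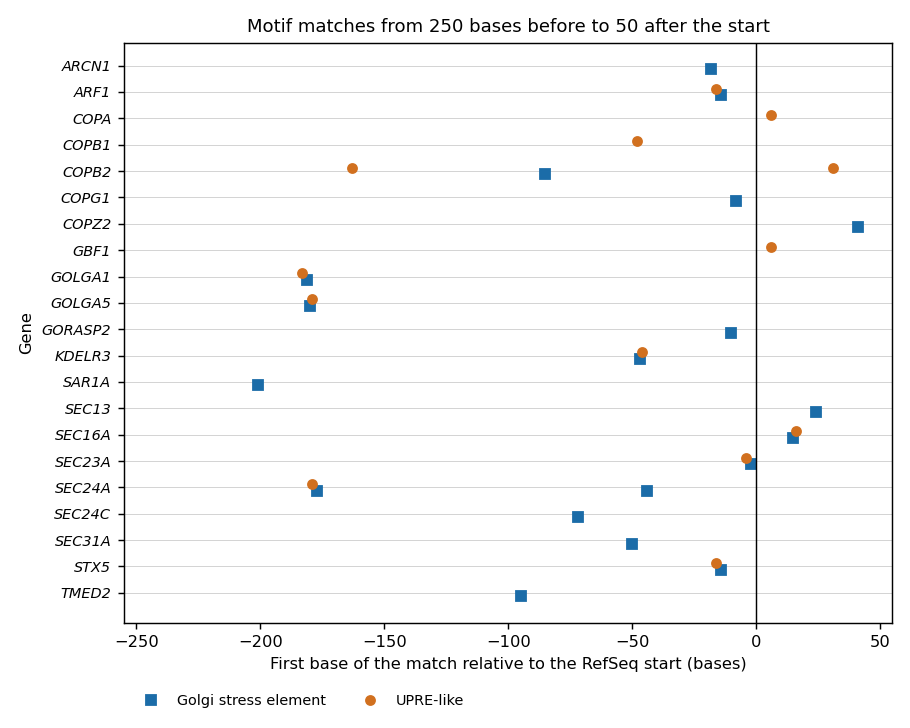
Positions of the Golgi stress element (squares) and the UPRE-like element (circles) in the promoter windows that hold either, 1 line per gene; the x axis is the distance in bases of the first base of the match from the RefSeq start. Where both symbols coincide, as in ARF1 and STX5 at -16 and -14, the letters overlap.

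The genes of this route were abundant in all libraries. Their median level ran from 20.6 FPKM in HCC827 with siDYN-2 to 35.4 FPKM in NCI-H1975 with 5 µM 18E, beside medians of 8.75 to 10.9 FPKM over all genes tested. ARF1, the GTPase that recruits the COPI coat, was the most abundant in 11 of the 12 libraries, at 280.1 to 456 FPKM. ARF5, a close relative, was above it in NCI-H1975 with siDYN-2 (483 and 424 FPKM). At the low end were GOLGB1, the golgin giantin, at 1.64 to 5.83 FPKM, and TRIP11, a tether of the cis-Golgi, at 1.2 to 7.14 FPKM. Between paralogues, the common zeta subunit COPZ1 was at 115 to 213 FPKM and COPZ2 at 2.53 to 19.8 FPKM, and the gamma subunit COPG1 was above COPG2 in each library.

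At 5 µM 18E the SNAREs STX5 and GOSR2 had the highest fitted changes of the group and ARF3 the lowest, and no gene of the group passed the test over all genes. By role, the median was highest in the 4 SNAREs (0.54) and lowest in the ARF GTPases with GBF1 (-0.16). Of the 48 genes 0 passed limma at an adjusted p under 0.05, where 0.00837% of all genes tested did (1 of 11953). At an unadjusted p under 0.05, 5 genes (10.4%) were higher, COPE, COPZ2, ARF4, GOSR2 and STX5, beside 10.0% of all genes. By the same rule 2 genes (4.17%) were lower, ARF3 and SEC16A, beside 16.8% of all genes. A difference of at least 0.3 on the log2(FPKM + 1) scale in both lines was found upward in 7 genes (14.6%), the same 5 with SAR1A and SEC13, beside 9.2% of all genes, and downward in ARF3 and SEC16A (4.17%), beside 16.7%. The upward shares lay near those of all genes.

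Over the group, the median fitted change at 5 µM was 0.09, with 30 genes higher and 18 lower. Over all genes tested it was -0.09, with 4969 higher and 6984 lower. With FPKM scaled to equal totals the split was 23 higher and 25 lower, with a median of -0.01 beside -0.19 over all genes, and 3 genes were higher and 6 lower at an unadjusted p under 0.05, beside 6.63% and 23.1% of all genes. Without the NCI-H1975 5 µM library, 12 genes were higher and 8 lower at an unadjusted p under 0.05, beside 19.8% and 29.4% of all genes, and 12 passed the adjusted threshold, where 37.8% of all genes did. Without the HCC827 DMSO library, 0 were higher and 1 was lower, beside 4.31% and 6.75%. In each such fit the lone library of a treatment is assumed to vary like the others.

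**Figure D2:**
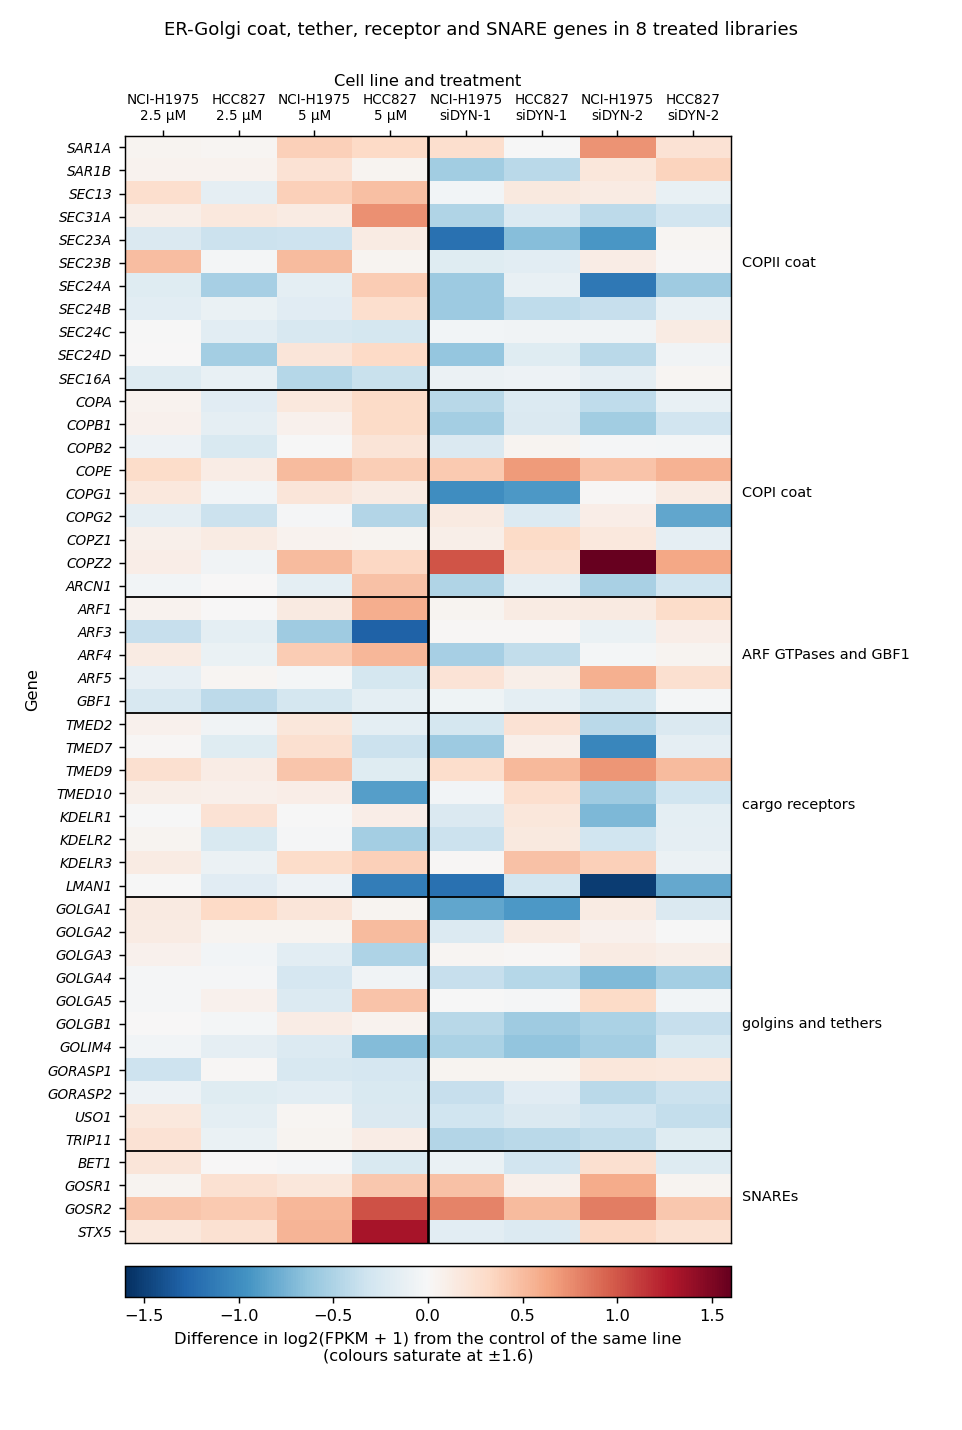
Difference in log2(FPKM + 1) of each of the 48 genes (rows, by role) from the control of the same line and experiment, in the 8 treated libraries (columns); red is higher, blue lower, and colours saturate beyond the scale. GOSR2 and COPE are red in all 8 columns and LMAN1 is blue or near 0 in all 8; COPG1 is deep blue in both siDYN-1 columns.

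Among the SNAREs, STX5 is the Golgi syntaxin that pairs with GOSR1, GOSR2 and BET1 to fuse carriers with the cis-Golgi. STX5 was at 20.3, 22.9 and 30.1 FPKM in NCI-H1975 with DMSO, 2.5 µM and 5 µM, and at 22.0, 26.2 and 56.6 FPKM in HCC827. Both lines were highest at 5 µM, and the DMSO and 5 µM groups did not overlap. The fitted difference was 0.93 ± 0.23 (standard error, n = 2 lines; limma adjusted p = 0.111). GOSR2 was at 24.2, 33.2 and 35.3 FPKM in NCI-H1975 and at 13.8, 18.8 and 29 FPKM in HCC827. Each line was higher at each step of dose and the DMSO and 5 µM libraries did not overlap, with a fitted difference of 0.77 ± 0.19 at 5 µM (adjusted p = 0.110). The share of all genes whose DMSO and 5 µM libraries did not overlap was not counted, so this separation does not set STX5 or GOSR2 apart. In the annotation GOSR2 shares its strand and most of its span (chr17:46923075-46975524, GENCODE 29) with the readthrough gene AC005670.2, and how reads of the pair were divided is not given in the sources used here. GOSR1 had 0.30 ± 0.16 and BET1 -0.13 ± 0.16.

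**Figure D3:**
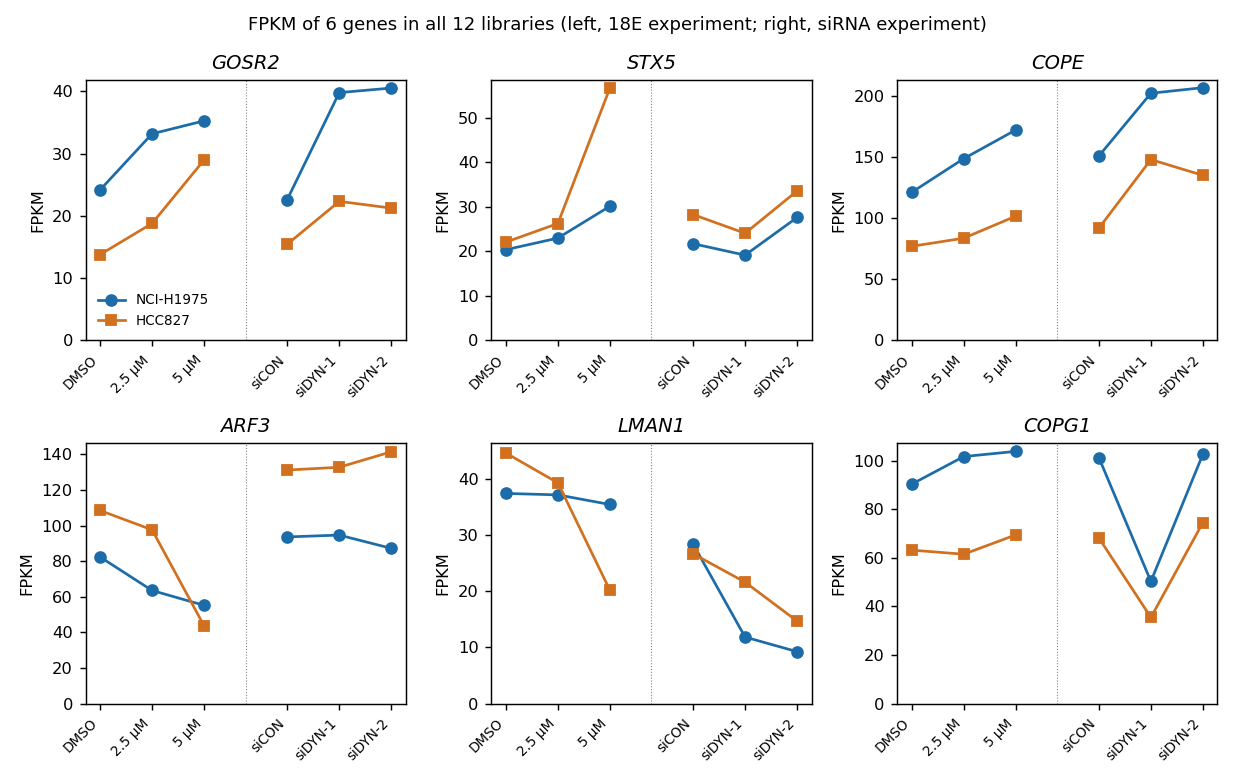
FPKM (y axis, linear from 0) of GOSR2, STX5, COPE, ARF3, LMAN1 and COPG1 in each of the 12 libraries, 1 point per library and no error bar; lines join the libraries of 1 cell line within an experiment, and levels are compared within an experiment. STX5 reaches 56.6 FPKM in HCC827 at 5 µM, and COPG1 is at 50.3 and 35.5 FPKM with siDYN-1 beside 101 and 68.2 FPKM with siCON.

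COPE, the epsilon subunit of the COPI coat, was at 121, 149 and 172 FPKM in NCI-H1975 with DMSO, 2.5 µM and 5 µM, and at 76.9, 83.6 and 102 FPKM in HCC827. It was higher at each dose in both lines, with 0.45 ± 0.14 at 5 µM (limma adjusted p = 0.132), but the DMSO level of NCI-H1975 lay above the 5 µM level of HCC827. COPZ2, the rarer zeta subunit, had 0.42 ± 0.17 (adjusted p = 0.185). The other 7 coat genes had fitted differences between -0.24, in COPG2, and 0.24, in COPA. In all, 8 of 9 coat genes had a fitted value above 0 (median 0.17), beside 4969 of all 11953 genes (median -0.09). Some lay within their standard error of 0, such as COPZ1 (0.05 ± 0.13) and COPB2 (0.10 ± 0.16). With equal FPKM totals the fitted values of COPB2 and COPZ1 were below 0.

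None of the ARF genes passed the test at 5 µM, and their fitted values lay on both sides of 0. ARF3, a close relative of ARF1 that acts at the trans-Golgi, was at 82.4, 63.6 and 55.2 FPKM in NCI-H1975 and at 108, 97.6 and 43.7 FPKM in HCC827. It was lowest at 5 µM in each line, with a fitted difference of -0.93 ± 0.25 (adjusted p = 0.117), and its locus overlaps 2 other coding genes annotated on the same strand. ARF4 was at 148, 163 and 198 FPKM in NCI-H1975 and at 108, 100.1 and 156 FPKM in HCC827. Its 5 µM libraries were the highest of each line, with 0.47 ± 0.15 (adjusted p = 0.141). ARF1 had 0.37 ± 0.17 and ARF5 -0.16 ± 0.16. GBF1, which loads ARF GTPases with GTP at the cis-Golgi, had -0.22 ± 0.16.

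SEC13 and SEC31A form the outer cage of the COPII coat. SEC13 was at 99.2 and 130 FPKM in NCI-H1975 with DMSO and 5 µM, and at 67.3 and 94.7 FPKM in HCC827. SEC31A was at 24.5 and 26.9 FPKM in NCI-H1975 and at 19.1 and 32.2 FPKM in HCC827. Both had a fitted difference of 0.43, with standard errors of 0.18 and 0.20. SEC16A, the scaffold of exit sites, was at 17.4 and 12.4 FPKM in NCI-H1975 and at 19.2 and 14.9 FPKM in HCC827. Its DMSO libraries were the higher in both lines, with a difference of -0.40 ± 0.15 (adjusted p = 0.176). Of the GTPases, SAR1A had 0.35 ± 0.15 and SAR1B 0.14 ± 0.16. The cargo-binding SEC24 paralogues were spread on both sides of 0, from -0.27 ± 0.15 in SEC24C to 0.26 ± 0.21 in SEC24D, with 0.13 ± 0.25 in SEC24A and 0.05 ± 0.19 in SEC24B, which was below 0 with equal FPKM totals. Their partners SEC23A and SEC23B had -0.10 ± 0.20 and 0.27 ± 0.19.

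Of the 11 golgins and tethers 5 had fitted values above 0 at 5 µM and 6 below, from -0.46 ± 0.19 in GOLIM4, a Golgi membrane protein that cycles to endosomes, to 0.28 ± 0.19 in GOLGA2, the cis-Golgi golgin that binds USO1; with equal FPKM totals GOLGB1 and TRIP11 were below 0 too. LMAN1, the lectin that carries coagulation factors out of the ER, was at 37.5 FPKM in NCI-H1975 with DMSO and 35.5 FPKM at 5 µM. In HCC827 it was at 44.7 and 20.2 FPKM. The fitted difference of -0.59 ± 0.27 thus came mostly from HCC827 (differences of -0.08 and -1.11). TMED10, a cargo receptor of COPI and COPII carriers, stood likewise, at 77.8 and 83.5 FPKM in NCI-H1975 and at 72.2 and 38.6 FPKM in HCC827. The KDEL receptors, which return ER chaperones from the Golgi, had 0.34 ± 0.17 (KDELR3), -0.28 ± 0.17 (KDELR2) and 0.05 ± 0.14 (KDELR1, below 0 with equal FPKM totals).

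At 2.5 µM the group was close to its controls. No gene passed the adjusted threshold (0 of 48, beside 0.0% of all genes), and 0 of 48 had an unadjusted p under 0.05 in either direction, beside 3.25% higher and 2.01% lower of all genes. Without the NCI-H1975 5 µM library, or without that of HCC827, 1 was higher and 3 were lower; in the first case 9.39% and 7.48% of all genes were. GOSR2, at 137% and 136% of its DMSO level, was the 1 gene at least 0.3 higher in both lines, beside 5.29% of all genes, and no gene was at least 0.3 lower in both, beside 3.93%. The median change was 0.01, with 26 genes higher and 22 lower (17 and 31 with equal FPKM totals, 22 and 26 after quantile normalization). Over all genes it was 0.00, with 5977 higher and 5976 lower. All 4 SNARE genes had fitted values above 0, from 0.10 in BET1 to 0.43 ± 0.19 in GOSR2 (adjusted p = 0.915). The lowest fitted value was that of SEC24A, -0.36 ± 0.25, followed by GBF1 at -0.34 ± 0.16. SEC23B had 0.23 ± 0.19 and SEC24D -0.27 ± 0.21, and neither kept its sign when 1 library was left out. In the direct test of 5 µM against 2.5 µM no gene of the group passed, beside 0.0% of all genes; the largest differences were 0.73 ± 0.23 in STX5 and -0.67 ± 0.25 in ARF3 (adjusted p = 0.411 for both).

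With DYNC1LI1 siRNA, both siRNAs taken as 1 treatment, more genes of the group were lower than higher. The median fitted change was -0.15, with 16 genes higher and 32 lower. Over all genes it was 0.01, with 5962 higher and 5756 lower. The split of the group was 10 and 38 with equal FPKM totals and 11 and 37 after quantile normalization. The median was below 0 in each treated library, at -0.22 in NCI-H1975 and -0.10 in HCC827 with siDYN-1, and at -0.04 and -0.07 with siDYN-2. None of the 48 passed at an adjusted p under 0.05, beside 0.0% of all genes. At an unadjusted p under 0.05, 11 genes (22.9%) were lower, beside 13.4% of all genes, and 4 (8.33%) were higher, beside 12.6%. A difference of at least 0.3 in all 4 libraries was found downward in GOLGA4 and GOLGB1 (4.17%), beside 6.7% of all genes, and upward in COPE and GOSR2 (4.17%), beside 6.49%. Without the NCI-H1975 siCON library, 0 genes were lower and 1 was higher at an unadjusted p under 0.05, beside 2.2% and 3.83% of all genes, and the median was -0.03.

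The golgins and tethers were the role with the lowest median with siDYN, -0.33. Of the 11, 8 were below 0, beside 5756 of all 11718 genes, and 5 were lower at an unadjusted p under 0.05, beside 13.4% of all genes: GOLGA4, GOLGB1, GOLIM4, GORASP2 and TRIP11. GOLGA4, a golgin of the trans-Golgi, was at 6.31 FPKM in NCI-H1975 with siCON and at 4.64 and 3.48 FPKM with siDYN-1 and siDYN-2, and at 4.44, 2.96 and 2.73 FPKM in HCC827. All 4 treated libraries were below the control of their line, with a fitted difference of -0.52 ± 0.16 (limma adjusted p = 0.117). GOLGB1 was at 3.39, 2.23 and 2.09 FPKM in NCI-H1975 and at 2.91, 1.64 and 2.03 FPKM in HCC827. Here the siCON libraries of both lines lay above all 4 treated libraries, with -0.47 ± 0.14 (adjusted p = 0.117). The share of all genes so separated from both siCON libraries, as were LMAN1, TMED9 and SEC24A below, was not counted. Of the stacking proteins, GORASP2 had -0.33 ± 0.13 and GORASP1 0.11 ± 0.14.

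Among the cargo receptors, LMAN1 was at 28.4, 11.9 and 9.26 FPKM in NCI-H1975 with siCON, siDYN-1 and siDYN-2, and at 26.7, 21.6 and 14.7 FPKM in HCC827. All 4 treated libraries were below both controls, with the lower level under siDYN-2 in each line and -0.96 ± 0.25 for both siRNAs together (adjusted p = 0.105). TMED9 was at 82.8, 101 and 135 FPKM in NCI-H1975 and at 93.6, 134 and 134 FPKM in HCC827. The treated libraries were all above both controls, with 0.50 ± 0.15 (adjusted p = 0.118). TMED7 was at 39.5, 26.1 and 18.6 FPKM in NCI-H1975 and at 25.4, 27.0 and 23.0 FPKM in HCC827, so its fitted -0.42 ± 0.23 came from NCI-H1975. It shares its strand with the readthrough gene TMED7-TICAM2.

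Among the COPII genes, SEC23A, the inner coat subunit that stimulates SAR1, was at 29.6, 12.3 and 15.0 FPKM in NCI-H1975 and at 19.7, 11.9 and 20.1 FPKM in HCC827. It was lower in 3 of 4 treated libraries and at its control level in HCC827 with siDYN-2, with -0.70 ± 0.26 (adjusted p = 0.160). SEC24A, which binds cargo, was at 9.35, 5.91 and 3.70 FPKM in NCI-H1975 and at 6.29, 5.69 and 3.91 FPKM in HCC827. Its treated libraries were all below both controls, with -0.60 ± 0.24 (adjusted p = 0.171). The paralogues had -0.37 ± 0.16 (SEC24B), -0.01 ± 0.13 (SEC24C), -0.33 ± 0.16 (SEC24D) and -0.06 ± 0.15 (SEC23B). SAR1A had 0.30 ± 0.19 and SAR1B -0.11 ± 0.29. SAR1B and SEC24A start on opposite strands and overlap by 483 bases (chr5:134648789-134649271, GENCODE 29).

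COPE and GOSR2, high at 5 µM 18E, were high here too. COPE was at 151, 202 and 207 FPKM in NCI-H1975 and at 91.8, 148 and 135 FPKM in HCC827. Every treated library was above the control of its line, with 0.53 ± 0.12 (adjusted p = 0.101). Most of the COPE span is shared on 1 strand with the coding gene AC002985.1. GOSR2 was at 22.6, 39.8 and 40.5 FPKM in NCI-H1975 and at 15.4, 22.3 and 21.2 FPKM in HCC827, with 0.64 ± 0.14 (adjusted p = 0.0981). COPZ2 was at 2.91, 6.84 and 19.8 FPKM in NCI-H1975 and at 2.53, 3.20 and 4.42 FPKM in HCC827, so that 1 library, NCI-H1975 with siDYN-2, held its largest difference (2.41). The other coat genes were at or below 0 except COPZ1 (0.10 ± 0.15, below 0 with equal FPKM totals or quantile normalization), with -0.41 ± 0.13 in COPB1 and -0.37 ± 0.14 in ARCN1, the delta subunit. The ARF genes had fitted values from -0.23 ± 0.19 in ARF4 to 0.29 ± 0.15 in ARF5. Those of ARF3 (0.01 ± 0.12) and STX5 (0.04 ± 0.20), the ends of the range at 5 µM 18E, were below 0 with equal FPKM totals or quantile normalization.

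Taken 1 at a time, the siRNAs gave different calls. With siDYN-1, 1 of 48 genes (2.08%) passed at an adjusted p under 0.05, beside 0.7% of all genes; it was lower (0.316% of all genes were), and 0 of 48 were higher, beside 0.384%. With siDYN-2, 7 of 48 (14.6%) passed, beside 18.1% of all genes: 4 rose (8.33%, beside 10.3%) and 3 fell (6.25%, beside 7.81%). Those that rose were COPE (0.50 ± 0.12, adjusted p = 0.0408), COPZ2 (1.51 ± 0.39, adjusted p = 0.0447), TMED9 (0.61 ± 0.14, adjusted p = 0.0367) and GOSR2 (0.63 ± 0.15, adjusted p = 0.0369). Those that fell were SEC24A (-0.85 ± 0.18, adjusted p = 0.0313), GOLGA4 (-0.63 ± 0.15, adjusted p = 0.0377) and LMAN1 (-1.17 ± 0.23, adjusted p = 0.0265). All 7 moved the same way with siDYN-1 but missed the threshold there. COPE (0.55 ± 0.12, adjusted p = 0.0744) and GOSR2 (0.65 ± 0.15, adjusted p = 0.0761) changed about as much with siDYN-1. None of the 7 passed the direct test of siDYN-2 against siDYN-1 given below, so these calls do not show a difference between the siRNAs. Without the NCI-H1975 siDYN-2 library, or without the NCI-H1975 siCON library, 0 of the 48 genes passed with siDYN-2. With equal FPKM totals 7 passed again, but COPB1, GORASP2 and TMED10 took the places of COPE, GOSR2 and TMED9. With no filter on low values, or with no cell line term, 0 of the 48 passed with either siRNA. Without either of the siDYN-2 libraries 7 of the 48 (14.6%) passed with siDYN-1, beside 12.2% or 12.0% of all genes: ARF4, COPE, COPG1, GOLGA1, GOLIM4, GOSR2 and SEC23A.

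COPG1, the gamma subunit that lets the coat bind ARF1 and cargo, was the 1 gene called with siDYN-1. It was at 101 FPKM in NCI-H1975 with siCON, 50.3 FPKM with siDYN-1 and 103 FPKM with siDYN-2. In HCC827 it was at 68.2, 35.5 and 74.5 FPKM. In both lines the siDYN-1 library stood at 49.7% and 52.0% of siCON and the siDYN-2 library at 101% and 109%. The difference with siDYN-1 was -0.96 ± 0.12 (adjusted p = 0.0411) and with siDYN-2 0.07 ± 0.12 (adjusted p = 0.671). Over 12 alternatives the siDYN-1 difference lay between -1.08 and -0.91, and it missed the threshold in 7 of them, among them each in which a siCON or siDYN-1 library was left out (adjusted p = 0.0553 to 0.132). Its paralogue COPG2 had -0.04 ± 0.23 with siDYN-1. In the 18E experiment COPG1 was at 90.3, 102 and 104 FPKM in NCI-H1975 and at 63.2, 61.5 and 69.4 FPKM in HCC827. The gene lies at chr3:129249606-129277773 on the plus strand (GENCODE 29) and overlaps no other coding gene.

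In the direct test of siDYN-2 against siDYN-1, COPG1 was again the 1 gene of 48 that passed, higher with siDYN-2 by 1.03 ± 0.12 (adjusted p = 0.0418). That is 2.08%, beside 0.606% of all genes, or 0.393% higher and 0.213% lower. This test was chosen after the data were seen, and without the HCC827 siDYN-1 library COPG1 missed the threshold (adjusted p = 0.1), as it did with no variance trend (0.0537), no filter on low values (0.158) or no cell line term (1.0). GOLGA1, a golgin of the trans-Golgi, was at 3.92, 1.77 and 4.38 FPKM in NCI-H1975 and at 4.16, 1.72 and 3.41 FPKM in HCC827. It stood like COPG1, low with siDYN-1 alone, but missed the threshold (0.83 ± 0.16, adjusted p = 0.0674). SAR1B was at 11.0, 7.21 and 12.6 FPKM in NCI-H1975 and at 7.35, 5.17 and 9.66 FPKM in HCC827, and also missed it (0.76 ± 0.14, adjusted p = 0.0632). Without either of the siCON libraries both passed beside COPG1, where 3.29% and 3.25% of all genes did. TMED10 differed the other way, lower with siDYN-2 (-0.55 ± 0.14, adjusted p = 0.104).

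**Figure D4:**
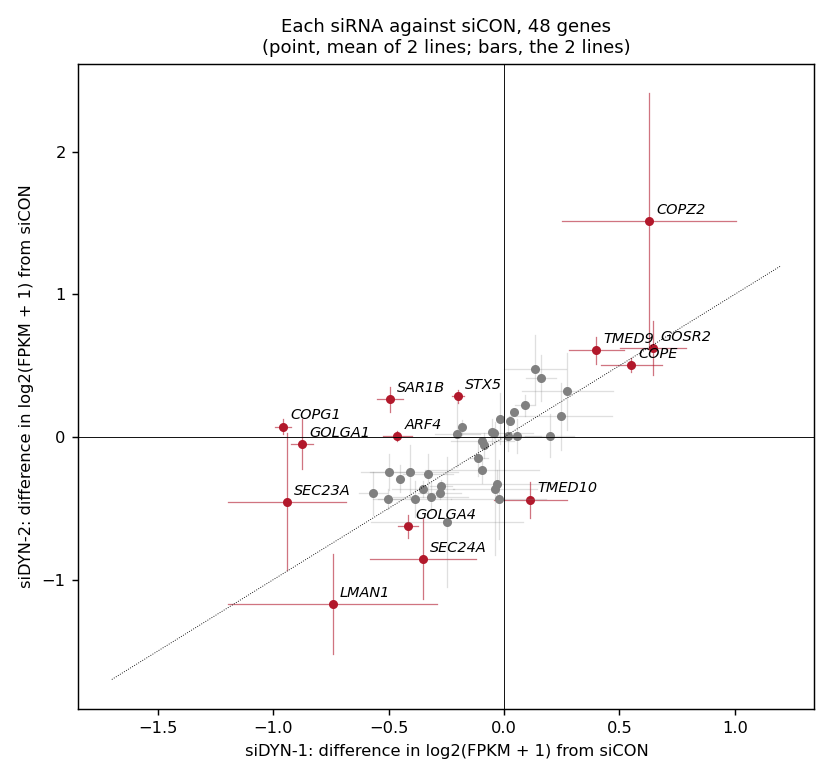
Change of each of the 48 genes with siDYN-1 (x axis) and siDYN-2 (y axis), as the difference in log2(FPKM + 1) from siCON; a point is the mean of the 2 lines, bars span the lines, the dotted line marks equality, and red points are labelled. COPG1 lies at -0.96 and 0.07, far from the line of equality; both axes share the siCON libraries.

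No gene of the group passed the test of a difference between the lines, beside 0.0% of all genes in the 18E experiment and 0.0% in the siRNA experiment. In that test the libraries at both doses, or with both siRNAs, counted as replicates within a line. The smallest unadjusted p-values with siDYN were those of TMED7 and LMAN1, with changes 0.78 ± 0.40 and 0.80 ± 0.44 less negative in HCC827, followed by GOSR1, COPZ2 and SEC23A. With 18E they were those of SEC23B, at -0.49 ± 0.29 in HCC827 minus NCI-H1975, and then KDELR2, TMED7, TMED9 and LMAN1. SEC23B was at 31.5 FPKM in NCI-H1975 with DMSO and 44.6 and 45 FPKM with 18E, and in HCC827 at 46.9, 46.0 and 48.5 FPKM. The NCI-H1975 DMSO library was thus the low one of the 6.

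Over all 8 treated libraries, 4 genes (8.33%) were above their control each time: COPE, ARF1, GOSR1 and GOSR2. Of the 11449 genes tested in both experiments 7.2% were. GBF1, GOLGA4, GOLIM4, GORASP2 and LMAN1 (10.4%) were below it each time, as were 10.6% of all genes. The doses share a DMSO library and the siRNAs a siCON library in each line, so these libraries are not independent. For GOSR2 the difference ran from 0.42 to 1.02 over the 8 libraries. For ARF1 it ran from 0.00 to 0.59 and for LMAN1 from -1.52 to -0.01. The fitted value of ARF1 was below 0 after quantile normalization at 2.5 µM and with siDYN, and with equal FPKM totals at 2.5 µM.

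With siDYN the changes were ordered along transcript length and base composition, in the group as in all genes. In that comparison Spearman's rho across the 48 genes was -0.44 with the length of the longest coding transcript and 0.60 with its GC content, beside -0.41 and 0.44 across 11436 genes. Genes share the libraries and are not independent, so these values are descriptions. Among the 33 genes of at least 3000 bases the median change was -0.31 and 6 were above 0, and among the 15 shorter genes it was 0.06 and 10 were. Over all genes these medians were -0.12 and 0.15. GOLGB1, the longest transcript at 11198 bases, and LMAN1, with 39.6% GC, were among the lower genes, and COPE (1144 bases, 63.9% GC), TMED9 (1473 bases, 57.0% GC) and COPZ2 (895 bases, 55.5% GC) among the higher. Some genes of at least 3000 bases were above 0, against the order by length, among them GOSR2 (3964 bases, 48.5% GC), GOSR1 (6039 bases, 45.6% GC) and SAR1A (5981 bases, 42.9% GC), with changes of 0.64, 0.30 and 0.30. At 5 µM 18E rho was -0.30 with length and 0.17 with GC, beside -0.26 and 0.00 over all genes. By line, rho with GC over all genes was 0.108 in NCI-H1975 and -0.065 in HCC827, and rho with length -0.396 and -0.124. The part of length and GC in the results above was not tested.

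**Figure D5:**
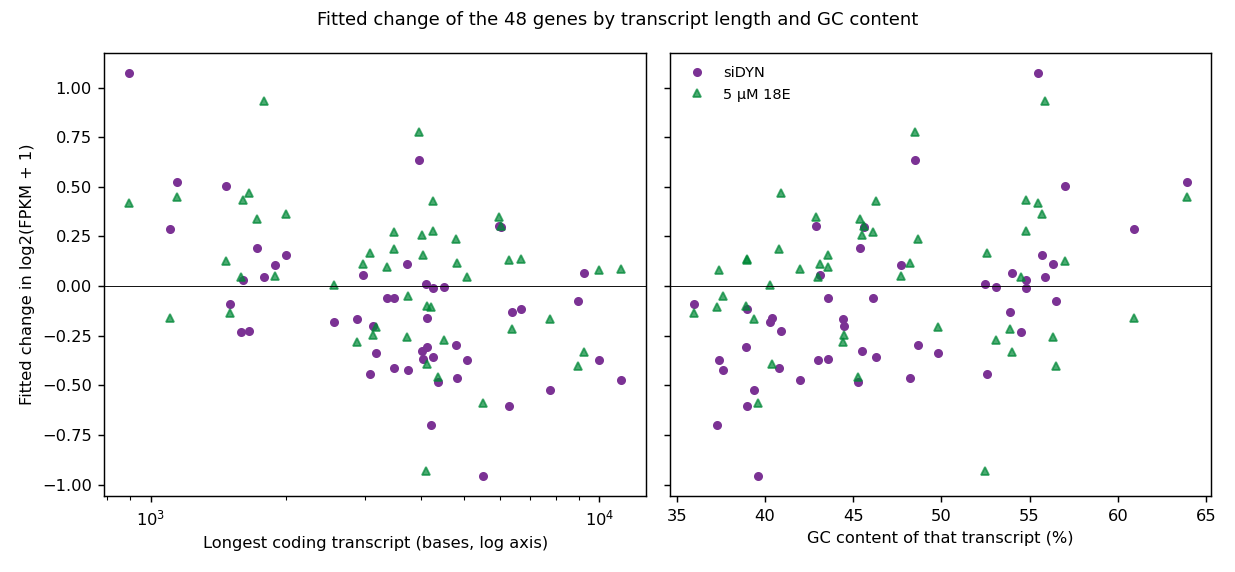
Fitted change in log2(FPKM + 1) of the 48 genes (y axis) against the length in bases of the longest coding transcript (left, log axis) and its GC content in percent (right), for siDYN (purple circles) and 5 µM 18E (green triangles). With siDYN the short, GC-rich COPZ2, at 1.07, lies at the top and the longer LMAN1, at -0.96, at the bottom.

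The changes of genes with and without a promoter match were set side by side, as a description. At 5 µM the 18 genes with the Golgi stress element had a median change of 0.14, with 14 above 0, and the 24 without it 0.05, with 13 above 0. Values among the 18 ran from -0.40 in SEC16A to 0.93 in STX5, which carry the same 9 letters. With siDYN the medians were -0.07 and -0.12. For the UPRE-like element the medians with and without it were 0.12 and 0.05 at 5 µM, -0.05 and 0.03 at 2.5 µM, and -0.10 in both with siDYN. COPG1 holds the Golgi stress element and not the UPRE-like element, and GOSR2 and COPE hold neither.

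Other genes of the route were taken from lists made by function, and 0 of these genes passed at an adjusted p under 0.05 at 5 µM or with siDYN. Over all 11953 genes tested at 5 µM, 4969 were above 0 and 6984 below (median -0.09), and 3053 were higher in both lines. Over all 11718 genes with siDYN, 5962 were above 0 and 5756 below (median 0.01). At 5 µM, 11 of 13 ER chaperone and ER stress genes were above 0, led by HERPUD1 (2.67), HSPA5 (2.14) and DNAJB9 (1.97), and 7 of 13 were higher in both lines. Their median of 0.57 was 1.01 in NCI-H1975 and 0.08 in HCC827. At the same dose 8 of 25 subunits of the COG, TRAPP and NRZ tethers were above 0 (median -0.16), with COG2 at -0.85. Of 11 other ARF regulators 7 were below 0 (median -0.12), among them the trans-Golgi exchange factors ARFGEF1 (-0.74) and ARFGEF2 (-0.76). Of 13 other Golgi structure genes 7 were above 0 (median 0.24, but -0.28 in NCI-H1975 and 0.41 in HCC827), with GCC1 at 0.67, BLZF1 at 0.59 and TGOLN2, a protein of the trans-Golgi network, at -1.16. With siDYN, 11 of these 13 were below 0 (median -0.49), led by GOLPH3 (-0.94), an adaptor that retains Golgi enzymes. The ER stress genes had a median of 0.00 with siDYN, with 6 of 13 above 0, and the 25 tether subunits 0.04, with 13 above 0. The 17 other SNAREs and fusion factors had medians of -0.10 at 5 µM and 0.10 with siDYN, and the 27 tested of 28 other exit site and cargo genes 0.02 and -0.10. Of 6 transcription factors of the secretory pathway 4 were above 0 at 5 µM, led by XBP1 (1.05) and TFE3 (0.88), and the lowest value was -0.05. With siDYN 5 were above 0, led by CREB3 (0.59), and CREB3L2 was below it (-0.60).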

How the data were processed

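Total RNA was prepared with Trizol and made into libraries with a TruSeq RNA kit from Illumina, per the labels. The authors deposited FPKM with 2 decimals, 1 table per experiment, per the file headers; depth is unknown, so the precision rests on the number of libraries. The submitters' processing notes name Bowtie 0.12.2, GRCh38.p12 and mm8, a mouse build, without saying what each was used for. For quantification, gene models and strand use no tool or setting is given in the sources used here. Incomplete lines (40 and 20) were dropped, and 0 columns were unmatched.

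Values were analysed as log2(FPKM + 1), which understates changes of low genes, for genes at 1 FPKM or more in 2 or more of an experiment's 6 libraries. Each experiment was fitted with limma 3.58.1 in R 4.3.3 (trend in the prior variance, two-sided, Benjamini-Hochberg over all genes tested, threshold 0.05). The cell line was the block, since each treatment had 1 library from each line. Residual degrees of freedom were 2 for 18E and for single siRNAs and 3 for siDYN. The fit was tested on simulated data. Fitted values are given ± standard error (n = 2 lines). Nothing in the labels says that libraries came from separate cultures.

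The members, lists and motifs were chosen with earlier results of these data known. Genes were described in full where every treated library moved by at least 0.3 one way (up to 8 per direction), where the fitted change was among the 4 largest per direction, where a library moved by at least 1, where the p of the difference between lines was among the 5 smallest, or as paralogues; other lists gave at most 3 genes each. COPB1, ARCN1, GOLGA2, SEC31A, TMED10, TRIP11 and BET1 were named after their values were seen. Alternatives were a pseudocount of 0.1, no filter, quantile normalization, equal FPKM totals, no trend, no cell line term, 1 term for both doses, 1 term for each siRNA, and leaving out each library in turn. The direct test of the siRNAs and the alternatives for single siRNAs were chosen after seeing the data. Positions, lengths and GC content are from GENCODE 29 on GRCh38; promoters are from RefSeq on GRCh38.p14. Of the 48 genes 19 overlap another coding gene, 10 on the same strand, and 9 have a named pseudogene, so their FPKM may hold reads of both.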

Additional observations from a re-analysis of the deposited data

Results flagged for a closer look

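Opposite directions in the lines marked 7 genes: both treated libraries of NCI-H1975 lay on 1 side of their control and both of HCC827 on the other. The share of all genes so marked was not counted, and the treated libraries of a line share 1 control. Some of these sides were near 0. With 18E, KDELR1 differed by -0.0077 and -0.0123 in NCI-H1975. At 2.5 µM, ARCN1 differed by 0.0025 in HCC827 and GOLGA5 by -0.0244 in NCI-H1975. The values below are the mean log2 change of HCC827 minus that of NCI-H1975. With 18E they were 0.338 for ARCN1, the delta subunit of the COPI coat, 0.383 for the golgin GOLGA5, 0.179 for the retrieval receptor KDELR1, -0.294 for the tether USO1, and -0.23 and -0.404 for the cargo receptors TMED2 and TMED7. With siDYN the value was -0.648 for COPG2, which was at 15.0, 16.7 and 16.2 FPKM in NCI-H1975 and at 6.17, 5.15 and 3.04 FPKM in HCC827 with siCON, siDYN-1 and siDYN-2. In the limma test of the difference between lines none of the 7 passed, and the lowest adjusted p over all genes of each experiment was 0.999 with 18E and 0.264 with siDYN.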

How the results depend on the processing

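The number of genes past the threshold at 5 µM, 1 in the fit reported, was 0 with pooled doses, equal FPKM totals, no filter on low values, no variance trend, or no replicate block (no pairing by cell line), and 16 with a pseudocount of 0.1. It was 34 to 4520 with 1 library left out, the highest without NCI-H1975 at 5 µM. At 2.5 µM leaving out 1 library gave 0 to 26. With siDYN the number was 82 for siDYN-1 and 2124 for siDYN-2 alone, and 0 to 128 with 1 library left out, the highest without HCC827 siDYN-1. The group's median change at 5 µM (0.09) was 0.0518 with pooled doses, -0.0077 with equal totals, 0.14 after quantile normalization and 0.0339 to 0.11 with 1 library left out. With siDYN (-0.15) it was -0.26 with equal totals, -0.0381 for siDYN-2 alone and -0.18 to -0.0331 with 1 library left out. The cause of these shifts was not tested.

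Of 387 values under these alternatives for the genes described at 5 µM, 2.5 µM and siDYN, 371 kept their direction and side of the threshold, 14 kept their direction and passed it, and 2 reversed. The 14 were ARF3, ARF4, GOLIM4, GOSR2, LMAN1, SEC13 and STX5 without NCI-H1975 at 5 µM, and 7 genes with siDYN-2 alone. SEC23B at 2.5 µM was -0.0117 without NCI-H1975 DMSO (range -0.0117 to 0.47 with 1 library left out), and SEC24D was 0.0346 without HCC827 at 2.5 µM (-0.57 to 0.0346). Many of these values could not change direction. Leaving out the filter, the variance trend or the cell line pairing cannot move a fitted value of these genes in this balanced design. Nor can leaving out a library of the other dose at 5 µM or 2.5 µM. None of the genes described passed in the fit reported, so keeping their side of the threshold means that they still missed it. Without the pairing their adjusted p-values rose to 1.0 with 18E and to between 0.684 and 0.759 with siDYN.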
